A study of Mus musculus with 9 samples.

Results

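The response to moderate hyperosmotic stress was examined by comparing the 3 libraries of cells kept for 3 h at 500 mOsm with the 3 libraries of cells in iso-osmolar medium, across all genes. These are 6 of the 9 libraries of the series, and the other 3 come from cells at 600 mOsm. All cells were wild type mouse embryonic fibroblasts (MEFs) of strain C57Bl/6, grown in DMEM with 10% fetal bovine serum, 2 mM glutamine, penicillin and streptomycin to about 80% confluence. The 500 mOsm medium was DMEM with 200 mM sucrose added, the 600 mOsm medium held 300 mM added sucrose, and the controls received no sucrose. Cells were flash frozen, RNA was extracted with Trizol and messenger RNA was captured with poly-T beads. The labels do not say whether the replicates were separate cultures or how the MEF line was derived, so that p-values measure the spread between these libraries, which may be technical.

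Hyperosmotic medium draws water out of cells, which shrink and concentrate their ions and proteins. Cells first take up ions to recover volume and then, over hours, replace them with compatible organic osmolytes such as sorbitol, myo-inositol, taurine, betaine and neutral amino acids. The genes for this second phase are targets of the tonicity-responsive factor NFAT5, also called TonEBP. Shrinkage also activates p38 and the other stress-activated MAP kinases, and slows protein synthesis for a time.

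Of the 35275 genes in the table, 13082 passed a filter on low counts and were tested by edgeR's quasi-likelihood test, with a Benjamini-Hochberg adjusted p under 0.05 as the threshold. At 500 mOsm 1728 genes (13.2% of those tested) were higher and 1931 genes (14.8%) were lower than in iso-osmolar medium, so that risers made up 47.2% of all calls. They made up 28.1% after a smooth correction of each library for transcript GC content and length. With that correction 3872 genes were lower over all genes, against 1931 without it. Lower counts given with it below stand against this general rise. The direction of the larger changes was uneven. A log2 fold change above 1 was found for 711 risers and below -1 for 411 fallers, and above 2 for 442 risers and below -2 for 66 fallers. Much of the excess of large rises came from genes at low level. Among the 1795 genes whose log2 CPM (counts scaled to the library total) averaged under 0, 463 were higher, with a median log2 fold change of 2.98, and 117 were lower. The filter let a gene in through a single treatment group, so that genes silent in iso-osmolar medium could enter by their level at 500 mOsm. Of genes with at most 3 counts in each iso-osmolar library and at least 10 in each at 500 mOsm, 225 were tested, all called higher. With at least 10 counts asked in every library 1257 genes were higher and 1711 lower. Among the 3349 genes averaging a log2 CPM of 3 to 5, 316 were higher, with a median of 0.41, and 646 were lower, with a median of -0.53. Where log2 CPM averaged 1 or more, 143 rose by a log2 fold change over 1 and 249 fell by as much. The risers took 9.13% ± 0.147 (SD, n = 3) of the counts of tested genes in iso-osmolar medium and 12.3% ± 0.27 at 500 mOsm, and the fallers 14.0% ± 0.0329 and 10.6% ± 0.0686. Total counts on genes ranged from 21716042 to 26740832 in the 6 libraries. A CPM is a share of the library, and in bulk RNA fewer cells of a type and less RNA per cell cannot be told apart.

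**Figure D1:**
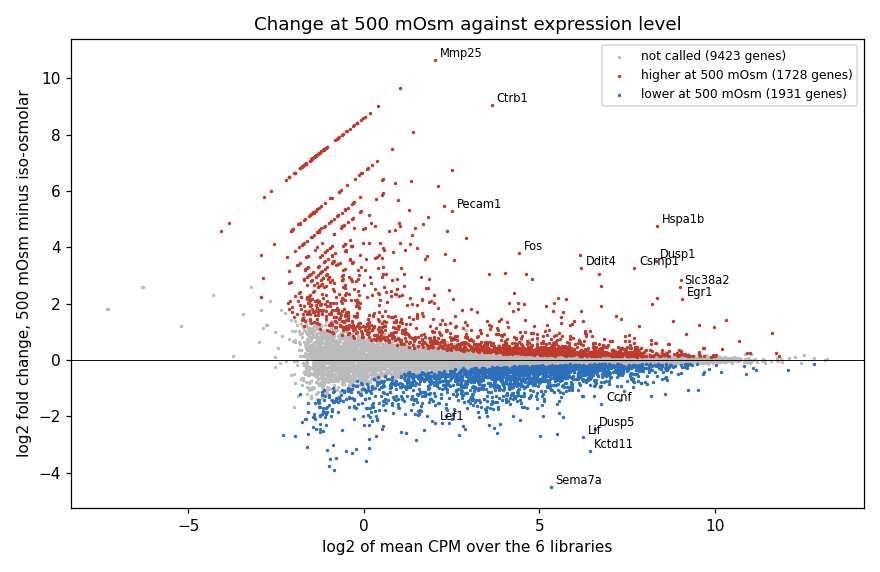
Each point is a gene, with the log2 of its mean CPM over the 6 libraries on the x axis and the log2 fold change at 500 mOsm against iso-osmolar medium on the y axis; red and blue points passed the test. The largest rises, such as that of Mmp25, stand at the left among genes of low level, while Hspa1b, Dusp1 and Slc38a2 rose from a higher level and Sema7a fell the most.

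Of 13 tested genes for the uptake and synthesis of osmolytes 6 were higher, 0 lower and the others did not pass the test, with a median log2 fold change of 0.30 against 0.01 over all genes tested. Akr1b3, the aldose reductase that makes sorbitol from glucose, had 251, 250 and 243 CPM in the iso-osmolar libraries and 608, 632 and 682 CPM at 500 mOsm. All libraries at 500 mOsm were above those in iso-osmolar medium, by a log2 fold change of 1.37 ± 0.0489 (SE, adjusted p = 7.03e-10). Over all genes tested, 40.9% had no overlap between the groups in either direction. Slc5a3, the sodium-coupled myo-inositol transporter, rose from 17.7, 13.9 and 20 CPM to 50.3, 34.0 and 36.1 CPM (1.22 ± 0.165, adjusted p = 0.000104). Slc6a6, the taurine transporter, rose by 0.56 ± 0.0458 and the water channel gene Aqp1 by 0.62 ± 0.0561. Nfat5, the gene for NFAT5 itself, had 65.0, 58.8 and 79.2 CPM in iso-osmolar medium and 96.6, 70.0 and 85.2 CPM at 500 mOsm, so that the groups overlapped (0.31 ± 0.145, adjusted p = 0.14). At 600 mOsm Akr1b3 stood at 269 ± 5.27 CPM and Slc5a3 at 9.98 ± 1.67 CPM, both lower than at 500 mOsm (adjusted p = 1.99e-09 and 2.99e-06). Between 600 and 500 mOsm 11.9% of all genes tested were higher and 17.2% lower.

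In the list of cation transporters, volume-sensing kinases and anion channels, 3 of 25 tested members were higher and 4 lower, shares close to those over all genes. With the GC and length correction 9 were lower, and without 500 mOsm replicate 1 a single member was higher. Atp1b1, a subunit of the sodium-potassium pump, rose from 14.4, 11.5 and 11.9 CPM to 20.7, 21.5 and 21 CPM (0.74 ± 0.0973, adjusted p = 7.9e-05). Lrrc8a, the subunit that the swelling-activated anion channel cannot work without, fell from 14.8, 12.1 and 13.3 CPM to 5.16, 4.49 and 5.22 CPM (-1.43 ± 0.125, adjusted p = 2.52e-06). Its partner subunits Lrrc8c and Lrrc8e also fell, by 0.62 and 0.87 on the log2 scale. Slc12a2, the sodium-potassium-chloride cotransporter of volume recovery, did not pass the test (-0.07 ± 0.0855), nor did the kinase gene Sgk1 (-0.16 ± 0.0588, adjusted p = 0.0663).

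Among 24 tested amino acid transporters 5 were higher and 2 lower (7 lower with the GC and length correction). Slc38a2, a sodium-coupled carrier of neutral amino acids, had the largest rise among those at a substantial level. It went from 152, 138 and 147 CPM to 887, 808 and 934 CPM (2.59 ± 0.0615), and stood at 144 ± 4.94 CPM at 600 mOsm. Slc1a3, a glutamate and aspartate carrier, rose by 0.72 ± 0.0715. The leucine carrier gene Slc7a5 had a log2 fold change of -0.09, and Slc3a2, which encodes its heavy chain, fell by 0.20 on the log2 scale.

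The integrated stress response slows initiation of translation through eIF2 alpha and raises ATF4 and its targets. Of 18 tested factors and effectors 7 were higher and 4 lower, and the lower count was 2 without 500 mOsm replicate 3 or without iso-osmolar replicate 3. Ddit4, an inhibitor of mTORC1, had 12.3, 16.3 and 12.4 CPM in iso-osmolar medium and 139, 137 and 123 CPM at 500 mOsm (3.28 ± 0.105, adjusted p = 2.47e-10). Ppp1r15a, whose product GADD34 brings a phosphatase to eIF2 alpha, rose from 20.5, 23.9 and 22.4 CPM to 183, 194 and 176 CPM (3.05 ± 0.0688). Atf3, a stress-induced repressor, rose from 2.82, 2.87 and 2.00 CPM to 20.8, 19.5 and 22.9 CPM (3.04 ± 0.155). In these 3 genes every library at 500 mOsm lay far above those in iso-osmolar medium. Nupr1, a small chromatin protein induced by stress, rose by 2.39 ± 0.103, and Atf4 by 0.24 ± 0.0454, a call lost with the GC and length correction (0.03). Ddit3, which encodes CHOP, had 9.88, 7.74 and 8.63 CPM against 8.12, 8.67 and 8.39 CPM (adjusted p = 0.744), and Trib3 had a log2 fold change of -0.10. Sesn2, a leucine sensor, fell by 0.68 and the angiogenic factor gene Vegfa by 0.79 on the log2 scale.

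ATF4 is known to raise enzymes of amino acid supply in amino acid shortage. Of 18 genes for serine, asparagine, proline and one-carbon synthesis 2 were higher and 2 lower, 11.1% each against 13.2% and 14.8% over all genes tested. Asparagine synthetase (Asns) had a log2 fold change of -0.09. Of the 20 cytosolic aminoacyl-tRNA synthetases 0 were higher and 1 was lower. The GC and length correction moved the lower counts to 11 and 12. Of 30 genes of the unfolded protein response of the endoplasmic reticulum 1 was higher (3.33%) and 5 were lower (16.7%). With the correction 9 were lower. Xbp1, the transcription factor of the IRE1 branch, fell from 41.2, 41.1 and 44.9 CPM to 15.8, 19.9 and 17.5 CPM (-1.26 ± 0.0851, adjusted p = 2.76e-07), while the chaperone gene Hspa5 did not pass the test (0.17).

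Of 23 heat-inducible chaperones 6 were higher and 0 lower, with a median log2 fold change of 0.08 (4 lower with the GC and length correction). The rise was uneven. Hspa1b, an inducible HSP70 gene, had 22.4, 25.8 and 21.6 CPM in iso-osmolar medium and 680, 637 and 580 CPM at 500 mOsm (4.76 ± 0.0847, adjusted p = 1.92e-12), against 48.6 ± 2.70 CPM at 600 mOsm. Its near-identical copy Hspa1a was at 0.228, 0.205 and 0.204 CPM against 5.86, 7.12 and 5.53 CPM, and how reads were divided between the copies is uncertain. Bag3, a cochaperone of HSP70, rose by 0.48. Hsph1 and Dnajb1, which the heat shock factor also controls, had log2 fold changes of 0.05 and -0.06 and did not pass the test.

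Immediate early genes, which encode transcription factors made within minutes of a signal, moved often and in both directions. Of 25 tested members 14 were higher and 6 lower, with a median log2 fold change of 0.52. Fos, a subunit of the AP-1 factor, was at 2.91, 3.07 and 2.54 CPM in iso-osmolar medium and at 38.9, 38.3 and 42.6 CPM at 500 mOsm (3.81 ± 0.104, adjusted p = 6.07e-11). Egr1, a zinc finger factor, rose from 197, 209 and 184 CPM to 906, 807 and 920 CPM (2.16 ± 0.0639). Csrnp1, a nuclear factor rich in cysteine and serine, rose from 36.7, 43.0 and 38.9 CPM to 371, 396 and 364 CPM (3.25 ± 0.0647). Ier3, an early response gene that modulates survival, rose by 2.83 to 911 CPM on average, and Jun by 0.75. These risers were lower at 600 mOsm, where Fos had 2.53 ± 0.226 CPM, Egr1 164 ± 6.63 CPM, Csrnp1 32.9 ± 1.05 CPM and Ier3 46.5 ± 3.14 CPM. Against these, Egr3, a relative of Egr1, fell from 22.1, 26.6 and 23.1 CPM to 3.94, 3.69 and 4.2 CPM (-2.60 ± 0.113), and Fosl1, another AP-1 subunit, fell by 0.76. The small GTPase gene Gem, which limits calcium channels and is itself an early gene, rose from 11.1, 8.97 and 9.73 CPM to 132, 128 and 139 CPM (3.74 ± 0.0839).

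A list of phosphatases and Sprouty or Spred inhibitors that limit MAP kinase signalling also held the gene Etv5, which is neither. Of its 20 tested members 1 was higher and 9 were lower, and 14 were lower with the GC and length correction. Dusp1, a nuclear phosphatase that acts on p38 and JNK, was the riser. It had 51.6, 51.6 and 48.9 CPM in iso-osmolar medium and 606, 608 and 535 CPM at 500 mOsm (3.52 ± 0.0622, adjusted p = 1.92e-12), the smallest p in the comparison together with Hspa1b. Dusp5, the nuclear phosphatase of ERK, fell from 154, 170 and 158 CPM to 29.0, 29.7 and 29.4 CPM (-2.45 ± 0.0599, adjusted p = 1.9e-11). Dusp6, the cytoplasmic phosphatase of ERK, fell from 79.0, 85.6 and 77.2 CPM to 39.6, 39.2 and 45.4 CPM (-0.96 ± 0.0783). The ETS factor gene Etv5 and the inhibitor gene Spry4 fell by 1.27 and 2.79 on the log2 scale. For the ERK-directed members the libraries at 600 mOsm were low as well, with 38.9 ± 2.18 CPM for Dusp5 and 27.0 ± 2.38 CPM for Dusp6.

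**Figure D2:**
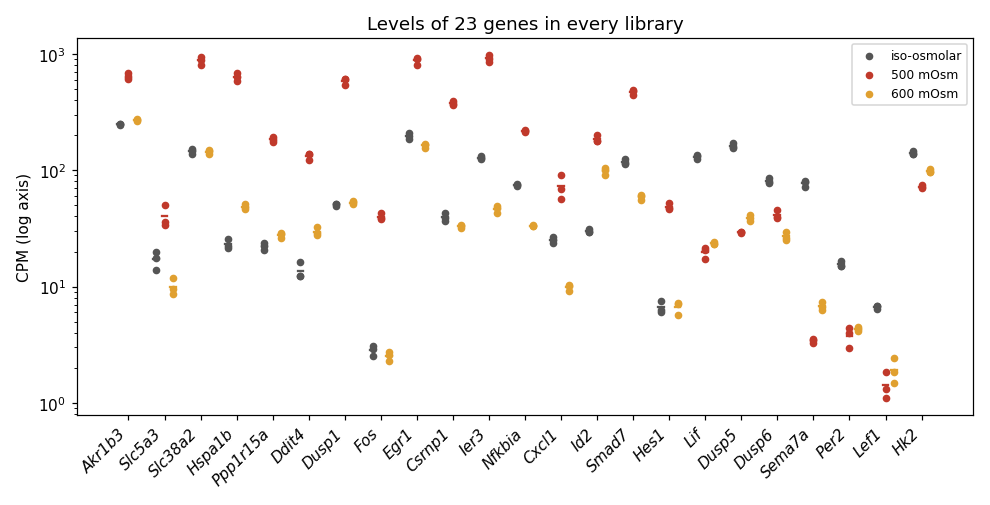
CPM on a log axis for 23 genes, with a point for each library and a bar at the mean of the 3 libraries of a treatment. The 500 mOsm libraries of Hspa1b (580 to 680 CPM) or Dusp1 (535 to 608 CPM) stand above both other treatments, while Lif, Dusp5 and Sema7a were low at 500 and at 600 mOsm.

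The NF-kB pathway was mixed. Of 23 subunits, kinases and feedback genes 5 were higher and 8 lower (14 lower with the GC and length correction). Nfkbia, which encodes I kappa B alpha, rose by 1.55 ± 0.0448 and Tnfaip3, which encodes the ubiquitin editor A20, by 1.72 ± 0.0688, both feedback inhibitors. Nfkbie, another I kappa B gene, went the other way, from 23.6, 28.8 and 24.7 CPM to 11.2, 11.6 and 10.1 CPM (-1.23 ± 0.0976, adjusted p = 1.08e-06). Rel, the gene for the c-Rel subunit, was at 5.65, 4.63 and 5.93 CPM against 5.86, 4.52 and 4.39 CPM and did not pass the test (adjusted p = 0.557). Birc2 and Birc3, the cIAP ubiquitin ligases, fell by 0.67 and 0.63 on the log2 scale.

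Of 19 tested cytokines, chemokines and adhesion molecules 7 were higher and 6 lower (11 higher with no filter on low counts). Chemokine genes were among the risers, Cxcl1 going from 26.5, 24.9 and 23.6 CPM to 69.4, 56.8 and 91.1 CPM (1.54 ± 0.137, adjusted p = 2.86e-06) and Ccl2, which attracts monocytes, from 9.56, 10.6 and 8.75 CPM to 40.0, 35.8 and 38.3 CPM (1.98 ± 0.0871). Cxcl2, a neutrophil chemokine, had 0, 2 and 1 counts in iso-osmolar medium and 25, 38 and 39 counts at 500 mOsm. Lif, a cytokine of the interleukin-6 family, fell from 134, 133 and 125 CPM to 21.5, 17.2 and 20.6 CPM (-2.73 ± 0.0775, adjusted p = 8.57e-11). Il11, of the same family, fell by 1.25, Il34, a ligand of the CSF1 receptor, by 1.28 and the membrane chemokine gene Cx3cl1 by 1.41 on the log2 scale. Il6 had at most 1 count in any library. Of 24 interferon regulatory factors and stimulated genes 7 were higher and 5 lower, and 4 were higher among genes with at least 10 counts in every library. Irf1 and Irf5, transcription factors of the interferon system, fell by 0.92 and 1.18 on the log2 scale, and Tap1, the peptide transporter of antigen presentation, rose from 1.18, 1.72 and 1.55 CPM to 4.10, 4.03 and 4.46 CPM (1.49 ± 0.166).

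The bases just before the annotated start of strong risers are shown because the motifs of the factors named above can be read in them. Each stretch is 200 bases long, ends at the base before the start and is given 5′ to 3′ on the strand of the gene (RefSeq, build GRCm38.p6). Capitals mark matches on either strand to 6 motifs: the NF-kB site GGNNTTTCC, the C/EBP-ATF element TGATGNAA, the cyclic AMP response element TGACGTCA, the AP-1 site TGANTCA, the heat shock element GAANNTTC and the tonicity element of NFAT5.
Nfkbia (chr12:55492648-55492847, minus strand): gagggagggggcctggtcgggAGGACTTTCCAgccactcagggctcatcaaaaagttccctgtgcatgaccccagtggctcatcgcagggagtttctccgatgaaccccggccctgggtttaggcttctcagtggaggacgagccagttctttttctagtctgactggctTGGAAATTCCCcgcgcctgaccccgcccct
Cxcl1 (chr5:90891045-90891244, plus strand): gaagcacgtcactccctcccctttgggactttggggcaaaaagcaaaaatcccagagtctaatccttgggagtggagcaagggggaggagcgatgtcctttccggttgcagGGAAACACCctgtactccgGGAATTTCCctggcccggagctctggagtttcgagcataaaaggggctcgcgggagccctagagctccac
Cxcl2 (chr5:90903699-90903898, plus strand): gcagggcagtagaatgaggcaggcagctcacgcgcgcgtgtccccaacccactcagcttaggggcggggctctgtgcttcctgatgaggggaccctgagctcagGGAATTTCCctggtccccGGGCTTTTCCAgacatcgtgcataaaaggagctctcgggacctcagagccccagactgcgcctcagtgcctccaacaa
Dusp1 (chr17:26508473-26508672, minus strand): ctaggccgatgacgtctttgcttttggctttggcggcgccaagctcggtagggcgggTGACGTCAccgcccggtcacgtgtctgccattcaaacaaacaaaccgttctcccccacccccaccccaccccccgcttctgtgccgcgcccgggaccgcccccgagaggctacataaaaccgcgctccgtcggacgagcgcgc
Ppp1r15a (chr7:45526269-45526468, minus strand): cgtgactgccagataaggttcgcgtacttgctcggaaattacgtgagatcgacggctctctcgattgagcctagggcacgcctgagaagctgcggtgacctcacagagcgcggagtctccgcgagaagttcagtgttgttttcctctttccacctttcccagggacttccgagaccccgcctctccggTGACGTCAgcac
Areg (chr5:91139399-91139598, plus strand): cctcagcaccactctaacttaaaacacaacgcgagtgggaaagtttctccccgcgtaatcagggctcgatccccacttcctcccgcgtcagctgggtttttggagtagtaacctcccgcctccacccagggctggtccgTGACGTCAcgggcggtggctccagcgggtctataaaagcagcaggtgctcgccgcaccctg
Hspa1b (chr17:34959239-34959438, minus strand): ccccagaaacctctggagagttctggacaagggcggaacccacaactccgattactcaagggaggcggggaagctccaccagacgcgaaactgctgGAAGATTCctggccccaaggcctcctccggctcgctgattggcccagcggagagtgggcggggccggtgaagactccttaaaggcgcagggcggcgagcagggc
Nfkbia, Cxcl1 and Cxcl2 each hold 2 matches to the NF-kB site. In Nfkbia both of these overlap a match to the tonicity element, and in Cxcl2 the one nearer the start does. Dusp1, Ppp1r15a and Areg each hold the cyclic AMP response element, and Hspa1b holds a heat shock element in a stretch that differs from that of Hspa1a at 1 of 200 positions. The windows of Fos, Slc38a2, Slc5a3, Ddit4 and Id2 in the same table, from 250 bases before to 50 bases after the start, hold no match to the 6 motifs.

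The same search was made in all promoter windows of the table. Of 27025 genes with at least 1 window, 9290 were tested here. A gene counted as holding a motif where any of its windows matched. An NF-kB site was held by 7.37% of tested genes, 7.52% of the 1237 risers, 7.89% of the 1420 fallers and 6.62% of all genes with a window. For the cyclic AMP response element the shares were 3.70%, 2.67% and 3.80%, with 2.03% of all genes. The tonicity element was held by 4.46% of tested genes, 6.39% of risers and 3.38% of fallers, with 5.74% of all genes. Among the 98 risers of at least 1 on the log2 scale whose log2 CPM averaged 1 or more, 10 held it (10.2%), among them Nfkbia, Csrnp1, Egr2, Nupr1, Pim1 and Bcl6. Among the 181 fallers of that size and level 10 held it (5.52%). In these larger risers and fallers the NF-kB site was held by 8.16% and 7.73%, the cyclic AMP response element by 3.06% and 1.10%, the AP-1 site by 5.10% and 8.29%, the heat shock element by 7.14% and 8.29% and the C/EBP-ATF element by 5.10% and 1.10%. For the AP-1 site the shares in tested genes, risers and fallers were 5.94%, 7.19% and 6.76% (8.97% of all genes), for the heat shock element 6.88%, 7.60% and 6.76% (9.04%) and for the C/EBP-ATF element 2.68%, 3.72% and 2.25% (4.51%). These shares describe letters in a short window and were not tested.

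Feedback genes of the TGF-beta and BMP pathways moved often, with 7 of 17 higher and 4 lower. Id2, an inhibitor of basic helix-loop-helix factors and a BMP target, rose from 31.3, 29.2 and 29.2 CPM to 177, 177 and 199 CPM (2.63 ± 0.0716, adjusted p = 6.07e-11), and stood at 98.4 ± 7.48 CPM at 600 mOsm. Smad7, the inhibitory Smad, rose from 113, 125 and 116 CPM to 491, 479 and 446 CPM (2.00 ± 0.0579). Id1 and Id3, relatives of Id2, rose by 1.38 and 0.77. The feedback inhibitor gene Pmepa1 fell by 0.81 and the BMP antagonist gene Grem1 by 1.53 on the log2 scale.

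In the Notch list 5 of 12 tested genes were higher and 3 lower. Hes1, a repressor that Notch induces, rose from 6.06, 6.23 and 7.57 CPM to 47.6, 46.3 and 52.1 CPM (2.87 ± 0.109, adjusted p = 1.29e-09). The receptor gene Notch2 fell by 0.69 on the log2 scale. Lfng, which modifies Notch receptors with sugar, fell by 1.45. The other risers included the ligand gene Dll1, at 0, 0 and 1 counts in iso-osmolar medium and 15, 19 and 26 counts at 500 mOsm. Without genes under 10 counts in any library 2 of the Notch list were higher. Of 18 Frizzled receptors and Wnt feedback genes 2 were higher and 6 lower. Lef1, a transcription factor at the end of the Wnt pathway, fell from 6.47, 6.84 and 6.87 CPM to 1.31, 1.85 and 1.11 CPM (-2.24 ± 0.196), and the receptor gene Fzd7 fell by 0.88 on the log2 scale. Of 9 EGF family ligands and receptors 3 were higher and 3 lower (5 higher without 500 mOsm replicate 2). The ligand genes Hbegf and Ereg rose by 0.68 and 0.46 and Areg went from 1, 1 and 0 counts to 31, 37 and 23 counts, while the receptor genes Egfr and Erbb2 fell by 0.42 and 0.41 on the log2 scale.

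Targets of YAP/TAZ and SRF, which respond to cell shape and tension, counted 5 higher (19.2%) and 4 lower (15.4%) of 26, near the 13.2% and 14.8% over all genes tested (12 lower with the GC and length correction). Amotl2, an inhibitor of YAP, rose from 428, 457 and 437 CPM to 1080, 1080 and 979 CPM (1.25 ± 0.0510). The kinase gene Lats2 and the matricellular gene Cyr61 rose by 0.87 and 0.67. Ctgf, often taken as a partner of Cyr61, fell from 150, 137 and 141 CPM to 105, 94.4 and 115 CPM (-0.44 ± 0.0784, adjusted p = 0.000845). The contractile genes Acta2 and Tagln had log2 fold changes of -0.07 and -0.04.

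Of 49 genes of G2 and mitosis 25 were higher and 1 was lower, with a median log2 fold change of 0.27. The rises were small and their sum over the list went from 4970 ± 93.9 CPM to 5780 ± 87.4 CPM (SD, n = 3). Plk1, the kinase that drives entry into mitosis, rose from 181, 194 and 187 CPM to 243, 263 and 251 CPM (0.43 ± 0.0471, adjusted p = 1.89e-05). Prc1, which bundles the microtubules of the central spindle, rose by 0.58, Aurkb, the kinase of the chromosomal passenger complex, by 0.43 and Ccnb1 by 0.24. The exception was Ccnf, cyclin F, which fell from 157, 169 and 162 CPM to 54.0, 60.0 and 50.1 CPM (-1.57 ± 0.0649) and stood at 161 ± 5.71 CPM at 600 mOsm. Genes of G1/S and DNA replication counted 3 higher (6.25%) and 8 lower (16.7%) of 48, against 13.2% and 14.8% over all genes tested, and 0 were higher without 500 mOsm replicate 2, iso-osmolar replicate 1 or iso-osmolar replicate 3. Ccne1, cyclin E1, fell from 36.7, 35.6 and 36.2 CPM to 16.9, 17.3 and 17.2 CPM (-1.08 ± 0.0642), and Pcna, the clamp of replication, had a log2 fold change of -0.01. With the GC and length correction 29 genes of the G2 list were higher, and 0 were higher and 21 lower in the G1/S list. Of 55 tested replication-dependent histone genes, which share near-identical sequence and whose transcripts mostly lack poly-A tails, 11 were higher and 4 lower. Without iso-osmolar replicate 1, 7 were higher, and 5 with at least 10 counts asked in every library.

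Of 18 p53 targets and Gadd45 genes 5 were higher and 5 lower. Gadd45a and Gadd45b, stress sensors that bind MAP kinase kinases, rose by 1.78 ± 0.113 and 1.44 ± 0.0477, and Sesn1 by 1.21. Cdkn1a, the p21 inhibitor of cyclin-dependent kinases, rose from 16.3, 17.3 and 14.6 CPM to 19.7, 23.9 and 21.7 CPM (0.44 ± 0.108, adjusted p = 0.00847), a call lost with the GC and length correction, and the pro-apoptotic gene Bbc3 fell from 3.28, 3.85 and 4.70 CPM to 1.76, 1.62 and 1.07 CPM. The long noncoding RNA Trp53cor1, encoded close to Cdkn1a and known as a p53 target, was at 0.182, 0.0819 and 0.0818 CPM in iso-osmolar medium and at 9.84, 8.33 and 7.36 CPM at 500 mOsm (adjusted p = 9.01e-09). Trp53 itself had 1, 2 and 0 counts in iso-osmolar medium and 1, 0 and 2 counts at 500 mOsm, and 2 in each library at 600 mOsm. The labels call these cells wild type, and why so few counts fell on this gene was not tested, so that the p53 status of the cells is not known from these data. Of 13 tested Bcl2 family genes 2 were higher and 2 lower, 15.4% each against 13.2% and 14.8% over all genes tested (5 lower with the GC and length correction).

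Of 16 tested genes of the circadian clock 6 were lower and 1 was higher, with a median log2 fold change of -0.23. Per2, a repressor of the clock, went from 15.1, 15.0 and 16.7 CPM to 2.95, 4 and 4.42 CPM (-2.03 ± 0.131, adjusted p = 1.68e-07). Per1 went from 45, 46.8 and 46.9 CPM to 13.9, 15.6 and 13.0 CPM (-1.70 ± 0.0973), and Cry2 and Bhlhe40, further repressors of the loop, fell by 1.43 and 1.09 on the log2 scale. At 600 mOsm Per1 stood at 33.2 ± 4.28 CPM and Per2 at 4.32 ± 0.167 CPM. Txnip, which restrains glucose uptake, fell from 6.74, 5.65 and 6.95 CPM to 2.58, 2.22 and 1.94 CPM, whereas it stood at 15.1 ± 1.43 CPM at 600 mOsm.

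Zinc finger genes gave the highest number of fallers of any list. Of 279 tested genes with a Zfp symbol 127 were lower (45.5%) and 12 higher, with a median log2 fold change of -0.46. Many genes with this symbol encode DNA-binding repressors of the KRAB type, but the list was set by symbol alone. Zfp866 went from 4.46, 4.71 and 5.48 CPM to 0.738, 0.641 and 0.686 CPM (-2.82 ± 0.170), and Zfp830 from 18.9, 16.4 and 17.1 CPM to 5.37, 4.75 and 4.65 CPM (-1.83 ± 0.0989). Zfp362 was an exception, rising from 0.774, 0.819 and 0.532 CPM to 5.57, 5.88 and 5.00 CPM. The symbol also takes in Zfp36, the RNA-binding protein that speeds decay of AU-rich messages, which rose by 1.75 ± 0.0988. At 600 mOsm against iso-osmolar medium, with the same control libraries, 64 Zfp genes were lower and 10 higher. Over all 13082 genes tested 2617 were lower and 1977 higher in that comparison. The median log2 fold change there was -0.13 for the Zfp genes and 0.01 over all genes tested. Of 18 mRNA decay factors 3 were higher and 7 lower (4 lower without iso-osmolar replicate 1), with the antiproliferative gene Btg2 falling by 1.70 on the log2 scale. Of 13 Kruppel-like factors 3 were higher and 3 lower. Klf4, a factor of quiescence and pluripotency, rose from 7.60, 9.22 and 8.06 CPM to 35.2, 33.4 and 32.5 CPM, and Klf13 fell by 1.32 on the log2 scale. Of 11 genes of the Myc, Max and Mxd network 3 were higher and 2 lower, and Myc had a log2 fold change of 0.05.

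Other strong fallers belong to none of the lists. Sema7a, a membrane-anchored semaphorin, went from 71.8, 80.0 and 78.8 CPM to 3.28, 3.47 and 3.51 CPM, the largest fall of any gene tested (-4.49 ± 0.0896, adjusted p = 3.21e-12). Kctd11, an adaptor of a ubiquitin ligase, went from 157, 159 and 151 CPM to 16.3, 15.7 and 17.8 CPM (-3.23 ± 0.0614). Hmga2, an architectural chromatin protein, fell by 2.63, Fam222b by 2.68 and the transcription cofactor gene Lbh by 2.02 on the log2 scale. The 6 libraries of each of these genes fell into separate groups, as did those of 40.9% of all genes tested. No overlap was also asked of the largest changes when genes were named. At 600 mOsm Sema7a was at 6.80 ± 0.578 CPM and Kctd11 at 29.9 ± 0.791 CPM, still far under the iso-osmolar level.

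Fallers had fewer exons than other protein-coding genes. The median number of exons, taken from the transcript with the most exons, was 7 over 1825 fallers, 10 over 1613 risers and 10 over 8492 genes that did not pass. Of 441 tested coding genes with 2 exons 138 were lower (31.3%) and 73 higher (16.6%), and of 353 with a single exon 89 were lower (25.2%). Of 1684 coding genes with 21 exons or more 161 were lower (9.56%) and 275 higher (16.3%). Without the Zfp genes the share of lower genes was 30.8% with 2 exons and 9.58% with 21 or more. The coding genes that rose had a median GC content of 53% in the longest transcript, against 50.5% for fallers and 49.5% for the others, and median lengths were 3390, 3600 and 3050 bases. These shares are over genes, which are not replicates, and were not tested.

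**Figure D3:**
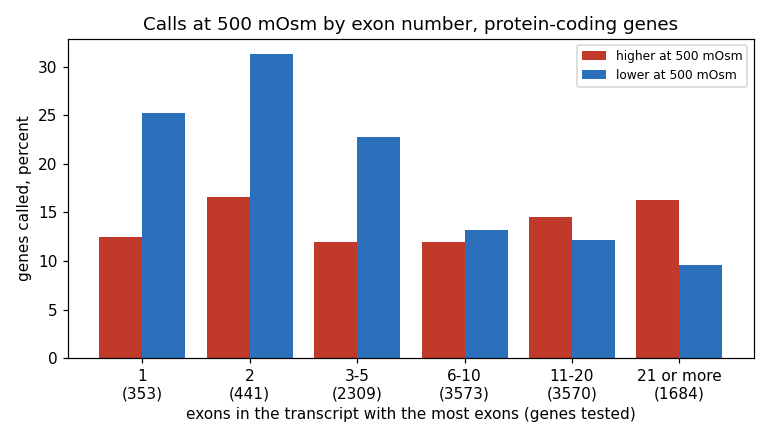
Percent of tested protein-coding genes that were higher (red) or lower (blue) at 500 mOsm, by the number of exons of the gene, with the number of genes under each pair of bars. The share of lower genes went from 31.3% with 2 exons to 9.56% with 21 or more.

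Host genes of small nucleolar RNAs were lower in 10 of 15 cases and higher in 1, with a median log2 fold change of -0.57. Snhg5 went from 26.5, 23.8 and 26.3 CPM to 11.1, 12 and 11 CPM (-1.17 ± 0.0952), and Gas5 from 65.3, 59.1 and 71.2 CPM to 48.0, 44.6 and 50.5 CPM (-0.45 ± 0.0740). Spliced transcripts of this class are known to be degraded during translation. Of 44 genes of ribosome biogenesis and RNA polymerase I 13 were lower and 0 higher (25 lower with the GC and length correction). Rrp1b, a nucleolar protein, fell by 0.61 and Polr1b, the second largest subunit of the polymerase, by 0.45 on the log2 scale, while the abundant nucleolar genes Ncl and Npm1 had log2 fold changes of 0.04 and 0.06. Of 18 genes of transcription elongation control 7 were lower (13 with the correction) and 1, Hexim1, an inhibitor of the elongation kinase P-TEFb, was higher (1.04 ± 0.0476). Ccnt2, a cyclin subunit of that kinase, fell by 0.93 on the log2 scale. Of 38 SR proteins, hnRNPs and Clk kinases 5 were higher (13.2%) and 4 lower (10.5%), against 13.2% and 14.8% over all genes tested. With the correction the counts were 9 and 7. The splicing kinase gene Clk2 fell by 0.83.

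Of 31 genes of cholesterol and fatty acid synthesis 17 were lower and 0 higher, and the others did not pass, with a median log2 fold change of -0.25 (26 lower with the GC and length correction). Sqle and Cyp51, enzymes of cholesterol synthesis, fell by 0.62 and 0.59 on the log2 scale. The genes of the sterol-responsive factors themselves, Srebf1 and Srebf2, had log2 fold changes of 0.01 and 0.04. In glycolysis 2 of 24 genes were higher (8.33%) and 3 lower (12.5%), against 13.2% and 14.8% over all genes tested. With the correction 0 were higher and 15 lower, and from 0 to 4 were higher when a library was left out. Hexokinase 2 (Hk2) went from 147, 138 and 139 CPM to 74.9, 71.6 and 70.6 CPM (-0.97 ± 0.05). Among 19 antioxidant targets of NRF2 2 were higher (0 with the correction, and from 0 to 4 when a library was left out) and 5 lower, and Nfe2l2, the gene for NRF2, fell by 0.70 on the log2 scale. Of 8 tested members of the list of Txnip, alpha-arrestins and glucose transporters 3 were lower and 0 higher, and the glucose transporter gene Slc2a1 fell by 0.57.

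Of 12 tested transcripts of the mitochondrial genome 11 were lower and 0 higher, with a median log2 fold change of -0.73. mt-Nd1, a subunit of complex I, went from 691, 819 and 929 CPM to 376, 359 and 439 CPM (-1.05 ± 0.112, adjusted p = 1.36e-05), and mt-Nd4 from 245, 241 and 318 CPM to 137, 135 and 148 CPM (-0.94 ± 0.104). The most abundant, mt-Co1, fell by less (-0.30, adjusted p = 0.0440), and mt-Nd6, the coding gene of the other strand, was the member that did not pass (-0.10). The summed share of these genes in the counts was 0.531% to 0.626% in iso-osmolar medium, 0.394% to 0.486% at 500 mOsm and 0.323% to 0.399% at 600 mOsm. Copies of these genes in the nuclear genome share sequence with them, so that how reads were assigned is uncertain. Leaving out a library in turn left 8 or 9 lower. Of 76 nuclear genes of oxidative phosphorylation 2 were higher and 0 lower. The 2 were the tissue-restricted isoforms Cox6b2 and Cox4i2, near silent in iso-osmolar medium.

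Of 83 tested cytosolic ribosomal protein genes 2 were higher and 1 lower, of 37 proteasome subunits 2 and 0, and of 49 translation factors 1 and 4. Their median log2 fold changes were 0.03, -0.02 and -0.05. With the GC and length correction 38, 18 and 25 genes of these lists were lower, and 22 of the nuclear oxidative phosphorylation genes. Over all genes the correction raised the number of lower genes from 1931 to 3872. The lower count of translation factors lay between 2 and 7 when a library was left out. Of 52 lysosome and autophagy genes 6 were higher (11.5%) and 5 lower (9.62%), against 13.2% and 14.8% over all genes tested. With the correction the counts were 3 and 11, and 3 were lower without replicate 1 or 2 of either group.

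Of 24 tested collagen chains 3 were higher (12.5%) and 6 lower, against 13.2% and 14.8% over all genes tested. With the GC and length correction 2 were higher and 12 lower. The higher count was 5 without iso-osmolar replicate 2 and 1 with at least 10 counts asked in every library. Col3a1, a fibrillar collagen, went from 48.2, 50.9 and 43.3 CPM to 21.6, 17.6 and 19.8 CPM (-1.27 ± 0.0907), and Col7a1, of anchoring fibrils, from 324, 350 and 351 CPM to 198, 199 and 166 CPM (-0.86 ± 0.0755). The most abundant chains, Col1a1 and Col1a2, had log2 fold changes of -0.01 and -0.05. Of 29 integrins and laminins 10 were higher and 4 lower (8 higher and 9 lower with the correction). With at least 10 counts asked in every library 7 were higher. Itga5, the alpha subunit of the fibronectin receptor, went from 518, 566 and 520 CPM to 228, 246 and 227 CPM (-1.20 ± 0.0534, adjusted p = 6.36e-09). Among the risers Itga7, a laminin receptor of muscle, went from 1, 0.737 and 0.859 CPM to 6.76, 6.03 and 6.41 CPM. Of 15 metalloproteinases and Timp inhibitors 4 were higher and 1 lower, and 2 were higher by DESeq2 or with the GC and length correction. The higher count was 1 without 500 mOsm replicate 2 or iso-osmolar replicate 2 and 2 without iso-osmolar replicate 1 or 3.

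**Figure D4:**
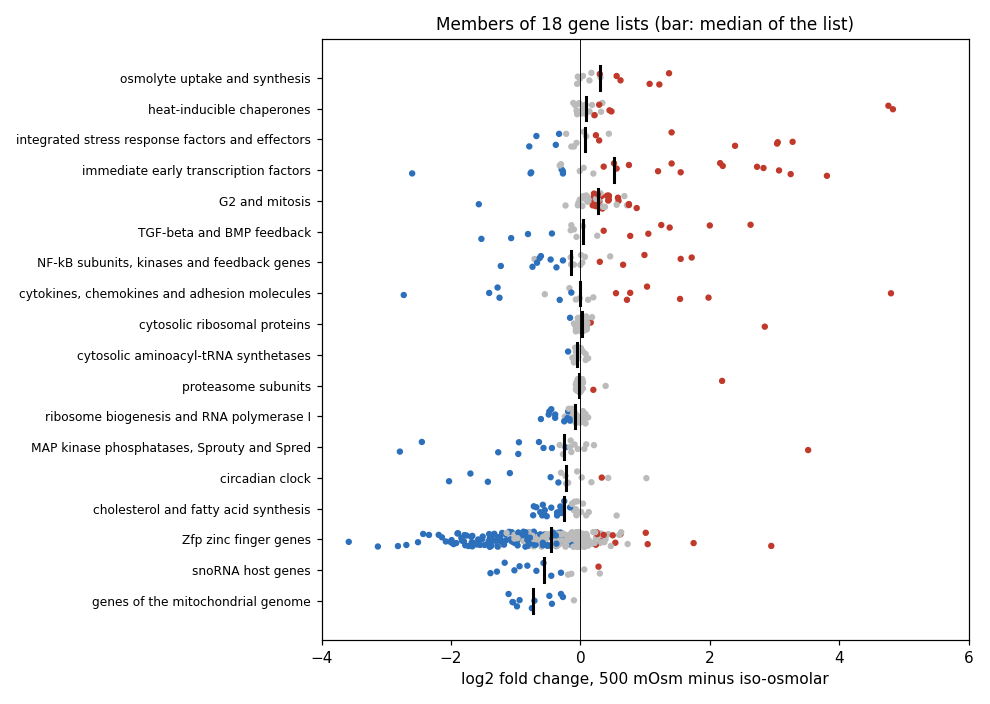
Log2 fold change of each tested member of 18 lists, with called risers in red, called fallers in blue, other genes in grey and the median of the list as a bar; the axis runs from -4 to 6. The immediate early genes spread to both sides (median 0.52), the G2 and mitosis genes form a tight group at a median of 0.27, and the Zfp, snoRNA host and mitochondrial lists have medians of -0.46, -0.57 and -0.73.

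Many genes were counted at 500 mOsm that were near silent without stress. A gene was taken as near silent where each iso-osmolar library had at most 3 counts. Of 20546 such genes, 242 had at least 10 counts in each library at 500 mOsm, 207 of them protein-coding. They were chosen by this rise, so that their change is a description. Their median level was 0.841 CPM at 500 mOsm, and 33 exceeded a mean FPKM (counts scaled to gene length and library total) of 1. At 600 mOsm 60 near-silent genes reached 10 counts in each library, and 26 genes did so at both intensities. In the reverse direction 6 genes went from at least 10 counts in each iso-osmolar library to at most 3 at 500 mOsm, among them Rsl1, a KRAB zinc finger repressor, with 11, 13 and 17 counts against 2, 2 and 3.

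The highest of these was Ctrb1 (chr8:111686510-111691010 in mm10), which encodes a pancreatic chymotrypsinogen. It had 1, 1 and 1 counts in iso-osmolar medium, 678, 635 and 607 counts at 500 mOsm and 16, 5 and 7 at 600 mOsm. Mmp25 (chr17:23629458-23645269), a membrane-anchored metalloproteinase of leukocytes, had 0 counts in each iso-osmolar library and 252, 190 and 185 at 500 mOsm, at least 191-fold higher when the control group is set to 3 counts in all. Cldn11, a tight junction gene, had 0 counts in each control and 127, 101 and 84 at 500 mOsm, at least 95.3-fold higher on the same footing. Ttc21a, a gene of cilia, went from 2, 3 and 2 counts to 296, 299 and 268. Its 3' end lies 3.37 kb from that of Csrnp1, which is read in the opposite direction and rose as described above. The labels' library protocol names no step that marks strand, so that reads of a gene and of a neighbour on the other strand cannot be told apart.

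The position of these genes was compared with that of the 9111 near-silent protein-coding genes that did not reach 10 counts. Genes are not replicates and some share a neighbour, as Atcay and Nmrk2 share Dapk3, so that these shares are a description and were not tested. An expressed gene (mean FPKM above 1 in iso-osmolar medium) of the same strand ended within 10 kb upstream of 27 of the 207 (13.0%) and of 3.95% of the others. An expressed gene of the opposite strand ended within 10 kb beyond the 3' end of 20.3% and 5.48%. Within 50 kb the upstream share was 60.4% against 13.6% and the downstream one 44.4% against 15.3%. Starts of expressed genes were also nearer, with a divergent start within 50 kb upstream in 31.4% against 11.9% and a same-strand start downstream in 36.2% against 14.7%. The ratio of these shares was largest for the end of an opposite-strand gene downstream within 10 kb and for the end of a same-strand gene upstream within 50 kb. Counting either kind of gene end within 50 kb, 161 of the 207 genes had such a neighbour, at a median distance of 13.3 kb. For 29 of these genes the neighbour was itself higher at 500 mOsm and for 26 it was lower, a shared neighbour counting each time. Over all genes tested 13.2% were higher and 14.8% lower. Examples are Lgals4, which begins 1.61 kb after Ech1 ends, Adora2a, 4.54 kb after Specc1l, Colec11, 7.56 kb after the ribosomal protein gene Rps7, and Mmp25, 23.3 kb after Thoc6.

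**Figure D5:**
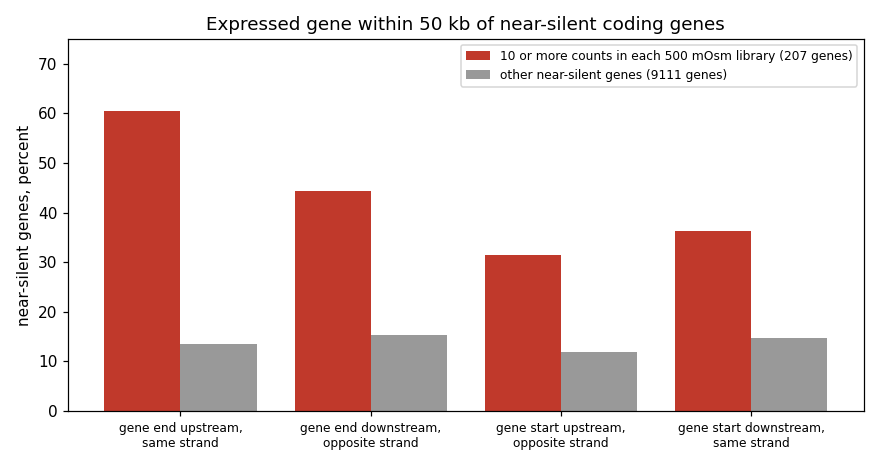
Percent of near-silent protein-coding genes with an expressed gene within 50 kb, by the side and strand of that gene, for the 207 genes with at least 10 counts in each 500 mOsm library (red) and the 9111 others (grey). The largest gap is for the end of a same-strand gene upstream, 60.4% against 13.6%.

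Markers of other cell types were among the risers from near silence or from a low level. Of 12 fibroblast markers 10 had a mean FPKM above 1 in both groups, while Dcn and Lum had at most 3 counts in any library, and the summed FPKM of the list was 5700 to 5800 in iso-osmolar medium and 5600 to 5850 at 500 mOsm. Cdh1, the cadherin of epithelia, went from 0, 1 and 0 counts to 90, 91 and 86, but the keratin gene Krt5 was at 0 in all 6 libraries and Epcam had at most 1 count. The summed FPKM of the 7 epithelial markers was 0.104 to 0.278 in iso-osmolar medium and 1.19 to 1.49 at 500 mOsm. Pecam1, an adhesion molecule of endothelium, rose from 0.182, 0.205 and 0.450 CPM to 10.9, 10.6 and 12 CPM, while Cdh5, the cadherin of endothelium, had a log2 fold change of 0.05, and the 6 endothelial markers summed to 0.211 to 0.265 FPKM and 3.38 to 3.87 FPKM. Itgam and Itgax, integrins of myeloid cells, went from at most 2 counts to between 35 and 61 counts, while Ptprc, the pan-leukocyte gene, had at most 7. The summed FPKM of the 9 leukocyte markers was 20.7 to 24.1 and 15.6 to 26.8, and that of the 7 markers of muscle and neurons 0.589 to 0.961 and 1.70 to 2.04, with the neuronal tubulin gene Tubb3 rising by 1.28 ± 0.183.

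The comparison of 600 mOsm with iso-osmolar medium shares the control libraries. In it 1977 of the 13082 genes tested were higher and 2617 lower. Risers and fallers were chosen by the same 500 mOsm libraries, so that smaller changes at 600 mOsm are partly built into their counts and medians here. Of the 1728 risers 741 were also called higher and 138 lower at 600 mOsm against iso-osmolar medium, and their median log2 fold change was 0.70 at 500 mOsm and 0.29 at 600 mOsm. Between the intensities themselves, 11.9% of all genes tested were called higher at 600 than at 500 mOsm and 17.2% lower. Of the risers 876 were called lower at 600 than at 500 mOsm and 63 higher, and the others were not called. Of the 1931 fallers 1193 were also called lower at 600 mOsm, 696 were called higher at 600 than at 500 mOsm and 242 lower still, and their medians were -0.54 and -0.38. Of 25 immediate early genes 18 were called lower at 600 than at 500 mOsm. Of the 49 genes of G2 and mitosis 8 were called higher and 2 lower, beside the 11.9% and 17.2% over all genes tested.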

How the data were processed

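RNA from wild type MEFs was sequenced as 3 libraries for each of iso-osmolar medium, 500 mOsm and 600 mOsm. Per the labels' processing notes, CASAVA 1.8, STAR and the build mm10 were used; the counting tool is not given in the sources used here. The authors deposited raw counts of reads per gene for 35275 genes, and FPKM values that equal these counts divided by gene length and library total. The authors' fold changes and p-values in the same table were not used. Counts were scaled by TMM factors, and edgeR 4.0.16 in R 4.3.3 was used for the test (glmQLFit and glmQLFTest, filterByExpr), with all 9 libraries in one fit, on 13082 genes with Benjamini-Hochberg adjustment. Genes varied between replicates by a common coefficient of 0.0756, and the SE of a log2 fold change had a median of 0.0993. On data simulated for the 500 mOsm comparison over 13082 genes and then filtered, the test called 95 of 100 genes set to a log2 change of 1, 100 of 100 set to 2, and 17 of 12594 unchanged genes. The changed genes were drawn from those with a mean CPM above 1, so that genes of lower level were not covered. Gene types and positions are those of the table. Exon number and GC content came from GENCODE M21 and promoter windows from RefSeq (GRCm38.p6, a patch release of the build also called mm10); of the protein-coding genes tested, 99.8% had exon and GC values. Promoters of chromosome 18 were not used here. Total counts per library are given with the results.

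Gene lists were set by symbol, and lists and questions were chosen with earlier results of these data known. Genes named are the 10 with the smallest p and the 10 with the largest change in each direction, preset members of lists and up to 4 called members of a list in each direction by smallest p; genes near silent were named by their count at 500 mOsm. A few further list members that did not pass, or that stand apart from their list, were named after their values were seen. Alternatives were RLE factors, library size alone, other filters on low counts (none, or at least 10 counts in every library), DESeq2 1.42.0, the 6 libraries alone, the replicate number as a block, a minimum log2 fold change of 1, limma 3.58.1 on log2(FPKM + 1) or log2(FPKM + 0.1), a correction for GC content and length, and each library left out. Floors cover counting error only. Cebpd, Spry3, Sgol2a, Snhg8 and Snhg16 were not analysed here.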

Additional observations from a re-analysis of the deposited data

How the results depend on the processing

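DESeq2 called 3378 genes against 3659, of which 3329 were shared, all in the same direction. Leaving out 1 library, the number called lay between 3156 and 3406, the number higher between 1463 and 1665 and the number lower between 1655 and 1766. The correction for GC content and length raised the lower genes to 3872 and left 28.1% of calls higher; with the replicate block as well the values were 3531 and 27.5%. The cause was not tested. This correction gave Mmp2, Pfkm and Pkm log2 fold changes of -0.04, -0.01 and -0.09, against small positive values otherwise, and gave the same 3 values with the replicate block. Asking also for a log2 change of 1 in either direction left 1122 genes, 711 higher and 411 lower (63.4% higher). The near-silent coding genes that reached 10 counts numbered 207, or 119 where at most 1 count was allowed in the controls and 85 where 20 counts were asked at 500 mOsm, and the share with an expressed gene upstream was 6.76% within 5 kb and 60.4% within 50 kb. The replicate numbers did not pair the libraries: same-numbered iso-osmolar and 500 mOsm libraries deviated together with r of -0.324, 0.536 and -0.314 across 9461 genes, and 1 of 3 iso-osmolar libraries was closest to its own number. With the replicate block 3111 genes were called, 3096 of them shared, all in the same direction. Among genes with at least 10 counts in every library 2968 were called, 2878 of them shared, and with no filter on low counts 4808, 3401 of them shared. Depth limits the genes near silence, whose changes rest on few counts.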
